A study of Mus musculus with 4 samples.

Results

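Accessible chromatin was described at 10 genes that build the linker and the backbone of chondroitin chains: Xylt1, Xylt2, B4galt7, B3gat3, Csgalnact1, Csgalnact2, Chsy1, Chsy3, Chpf and Chpf2. They are 10 of the 21887 protein-coding genes that RefSeq lists on GRCm38.p6 (mm10). An ATAC-seq peak was taken as belonging to a gene when it overlapped the gene body or the 50 kb on either side, and peaks that shared at least 1 bp across libraries were merged into a region. This gave 102 of the 90239 regions of the whole data set. ATAC-seq uses the Tn5 transposase to cut and tag open DNA, so a peak marks a place where the chromatin was accessible to the enzyme. The 4 libraries came from iMGT-Myh6-eGFP-MEF, mouse embryonic fibroblasts that carry Mef2c, Gata4 and Tbx5 (MGT) under the control of doxycycline. All 4 were induced with doxycycline and taken at day 1 of MGT expression, with siControl transfected in 2 libraries and siChst7 in the other 2. Chst7 is a sulfotransferase that modifies the finished chondroitin backbone; the level of its transcript was not analysed here. No library without MGT or without transfection is among them, so each comparison is between siRNAs within induced cells of a single line. The labels call the replicates biological without saying that cultures were separate, so the spread given below is between libraries and may be technical.

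Chondroitin sulfate is a long sugar chain carried by proteoglycans of the fibroblast surface and matrix. A xylosyltransferase (Xylt1 or Xylt2) places xylose on a serine of the core protein, B4galt7 adds the first galactose, and B3gat3 closes the linker with glucuronic acid. Csgalnact1 and Csgalnact2 add the first N-acetylgalactosamine, which commits the linker to chondroitin and not to heparan sulfate. Chsy1 and Chsy3 then extend the chain by alternating sugars, working in pairs with Chpf and Chpf2, which are needed for polymerization.

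Accessibility at the starts of these genes was general: 9 of the 10 had a peak within 1 kb of the start in all 4 libraries (90.0%), whereas 53.8% of all protein-coding genes did. The exception was Xylt1. The region over the Chpf start had the most reads, and those over the B3gat3 and Csgalnact2 starts had the highest fold enrichment, the authors' ratio of the summit pileup to the local background of the same library. Promoter windows of 300 bases (250 before to 50 after the start) were available from RefSeq, build GRCm38.p6, for 7 of the 10 genes. In 6 of these 7 all 300 bases lay under peaks in every library. In B4galt7 the peaks covered 143 and 121 bases with siControl and 143 and 138 with siChst7.

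The windows of 5 genes are printed 5′ to 3′ on the strand of the gene: Chpf (chr1:75479422-75479721, minus strand) for the most reads, B3gat3 (chr19:8920143-8920442, plus) and Csgalnact2 (chr6:118139091-118139390, minus, the farther upstream of its listed starts) for the highest fold enrichment, Chsy1 (chr7:66109242-66109541, plus) for the most CpG pairs, and B4galt7 (chr13:55599646-55599945, plus) as the window left partly uncovered. Capitals mark matches, on either strand, to 10 motifs. The letters searched were GGGCGG for the GC box, CCGGAAG for ETS factors, TGACGTCA for the cAMP response element, CACGTG for the E-box, CCAAT for the box of that name, GGAATG for TEAD factors, TGANTCA for AP-1, TATAAA for the TATA box, AGATAA for GATA factors and AGGTGTGA for T-box factors. A capital run that reads as the reverse complement (CCGCCC or ATTGG) is a match on the other strand, and no matches overlapped each other. A match is a description of the letters and not evidence of a bound factor.
Chpf: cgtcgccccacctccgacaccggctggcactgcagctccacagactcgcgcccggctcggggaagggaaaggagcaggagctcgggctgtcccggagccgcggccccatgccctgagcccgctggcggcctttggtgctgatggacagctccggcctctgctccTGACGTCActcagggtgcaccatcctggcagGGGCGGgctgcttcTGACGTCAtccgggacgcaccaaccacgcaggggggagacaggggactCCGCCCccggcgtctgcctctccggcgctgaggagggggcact
B3gat3: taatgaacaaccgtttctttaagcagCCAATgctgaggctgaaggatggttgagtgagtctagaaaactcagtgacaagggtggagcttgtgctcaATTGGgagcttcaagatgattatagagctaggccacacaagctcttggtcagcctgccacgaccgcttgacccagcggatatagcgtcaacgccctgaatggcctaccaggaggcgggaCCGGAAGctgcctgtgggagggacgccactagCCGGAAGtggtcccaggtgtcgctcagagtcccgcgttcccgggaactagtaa
Csgalnact2: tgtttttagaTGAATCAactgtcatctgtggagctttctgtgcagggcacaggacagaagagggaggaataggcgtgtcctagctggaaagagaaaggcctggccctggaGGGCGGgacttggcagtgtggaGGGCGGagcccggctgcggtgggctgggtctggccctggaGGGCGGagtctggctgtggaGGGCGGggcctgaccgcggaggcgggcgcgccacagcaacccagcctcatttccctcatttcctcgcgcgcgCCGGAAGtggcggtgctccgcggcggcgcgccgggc
Chsy1: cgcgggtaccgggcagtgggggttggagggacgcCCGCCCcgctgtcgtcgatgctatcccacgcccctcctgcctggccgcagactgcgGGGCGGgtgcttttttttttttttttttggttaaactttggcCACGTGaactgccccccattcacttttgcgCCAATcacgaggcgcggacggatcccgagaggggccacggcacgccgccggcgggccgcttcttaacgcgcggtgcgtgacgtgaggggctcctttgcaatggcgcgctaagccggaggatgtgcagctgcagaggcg
B4galt7: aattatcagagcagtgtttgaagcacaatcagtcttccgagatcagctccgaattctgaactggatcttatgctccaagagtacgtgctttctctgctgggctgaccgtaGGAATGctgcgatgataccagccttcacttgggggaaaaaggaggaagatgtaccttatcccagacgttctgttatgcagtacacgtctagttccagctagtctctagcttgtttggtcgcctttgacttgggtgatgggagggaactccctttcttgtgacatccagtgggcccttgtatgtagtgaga

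The Chpf window held the cAMP response element TGACGTCA at positions −86 and −41 from the start. That motif occurred in 2.23% of 21263 windows of protein-coding genes, and at least 2 copies occurred in 13 of them (0.0611%). B3gat3 had the ETS letters at −35 and −3; 11.6% of windows had the motif and 2.06% had at least 2 copies. Csgalnact2 carried 4 GC boxes between −140 and −58, a number reached by 7.53% of windows, with an ETS match at 14 and an AP-1 match at −240. Shares of all windows were 46.2% for the GC box and 6.99% for AP-1. Chsy1 had GC boxes at −216 and −160, an E-box at −118 (7.84% of windows) and a CCAAT box at −88 (38.2% of windows). With 34 CpG pairs its window stood at the 90.4th percentile of all windows, and at 71.7% GC the Chpf window stood at the 90.6th percentile of GC content. B4galt7 was the poorest of the 7 in CpG, with 8 pairs (39.8th percentile) and 48.3% GC. It had a TEAD match at −140, upstream of the bases under its peaks; 13.6% of windows have those letters. Of the windows not printed, Xylt2 had 3 GC boxes between −32 and −11, and Chpf2 had a CCAAT box. TATA, GATA and T-box letters, present in 12.6%, 9.65% and 1.15% of all windows, were in none of the 7. The windows of members therefore shared no single motif: the GC box was in 4 of 7 and each of the others in at most 3.

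Of the 102 regions, 28 overlapped a gene body and 74 lay in flanks. All 4 libraries called 70 of them (68.6%, against 62.0% of all regions), 7 were called in 3 libraries, 7 in 2 and 18 in 1. The median gene had 9 regions in its body and flanks and 5 in all 4 libraries, and the medians over the 10 members were 12 and 7.5. Per 100 kb of body and flanks the medians were 6.32 regions for all genes and 9.43 for the members. Small genes, whose windows were almost all flank, made up the upper part of that range: Chpf had 12.4 regions per 100 kb, B3gat3 12.2 and B4galt7 10.9. The long genes Csgalnact1, Chsy3 and Xylt1 had 2.92, 0.298 and 0. Most flank regions, 52 of the 74, overlapped the body of another gene, coding or non-coding. Such overlap does not say which gene a region acts on. By place, 10 regions lay at a member's own start, 23 at the start of another gene, 18 elsewhere in a member's body and 51 elsewhere in a flank. For other genes, only starts that RefSeq lists for protein-coding genes were counted. Starts of the 4395 protein-coding genes without a listed start, and of non-coding genes, may therefore lie among the regions placed elsewhere. The share called in all 4 libraries was 9 of 10, 21 of 23, 11 of 18 and 29 of 51 in that order. Among regions in all 4 libraries the median fold enrichment was 10.1 at own starts, 13.6 at starts of other genes, 8.35 elsewhere in bodies and 8.36 elsewhere in flanks.

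**Figure D1:**
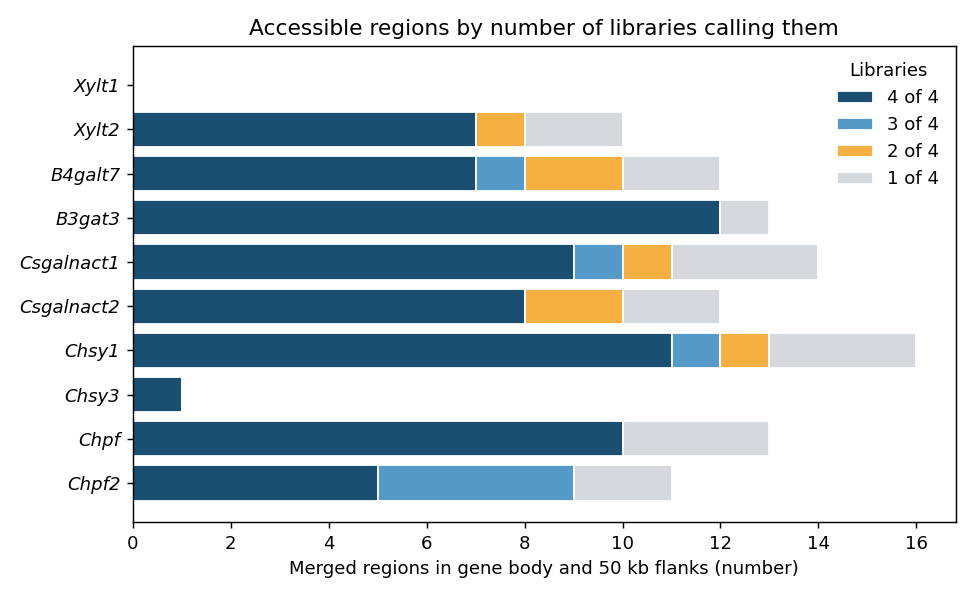
Number of merged regions in the body and 50 kb flanks of each gene (horizontal axis), split by how many of the 4 libraries called them. Xylt1 has 0 regions and Chsy3 has 1, while the other 8 genes have between 10 and 16, of which 5 to 12 were called in all 4 libraries.

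The xylosyltransferase genes differed in whether any peak was called in their body and flanks. A missing call is not evidence of closed chromatin. Xylt1 (gene 233781, chromosome 7, 117380979 to 117667630, 287 kb) had 0 regions in any library within its body and flanks. The nearest one lay 72.1 kb from the body, at 117739699 to 117740153. Having none was uncommon at this size but not rare: of 593 protein-coding genes with body and flanks at least as long, 63 (10.6%) had no region, and of all protein-coding genes 13.2% had none. Xylt2, which encodes the second enzyme for the same step (gene 217119, chromosome 11, 94663845 to 94677518), had 10 regions, 7 of them in all 4 libraries. Its start region, 94676526 to 94677932, had a fold enrichment of 11.2 and 12.0 in siControl replicates 1 and 2, and 11.7 and 11.5 in siChst7 replicates 1 and 2. The libraries of the 2 siRNAs overlapped in this value, whose mean of 11.6 ± 0.337 (SD, n = 4) had the smallest spread of the 9 start regions. The strongest region in the Xylt2 window was at the start of Lrrc59, 46.7 kb away (94629394 to 94630753), with a mean fold enrichment of 20.2. No other region of Xylt2 lay within its body, so everything else in its window was flank.

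At the galactosyltransferase gene B4galt7 (gene 218271, chromosome 13, 55599896 to 55610443) the peaks reached across the start but had their summits inside the gene. The region spanned 55599803 to 55601171 and the summits lay 936 to 967 bp downstream of the RefSeq start in the 4 libraries. Its fold enrichment was 7.87 and 8.01 with siControl and 8.09 and 6.72 with siChst7 (mean 7.67 ± 0.641, SD, n = 4), so the groups overlapped. Another 2 regions in the body, at 55601629 and 55604762, were called in 2 libraries and in 1. The strongest region of its window was at the start of Tmed9, 5.87 kb away (55592735 to 55594025, mean 17.9).

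B3gat3 (gene 72727, chromosome 19, 8920374 to 8927236), whose enzyme completes the linker, had the highest fold enrichment at its start of all members. The region 8920040 to 8921421 measured 15.2 and 16.5 with siControl and 16.4 and 14.8 with siChst7 (15.7 ± 0.854, SD, n = 4). The ranges of the 2 siRNAs overlapped. Of its 13 regions 12 were called in all 4 libraries, and its strongest region was at the start of Tut1 (8953365 to 8954347, mean 18.9). Tut1 lies 33.0 kb away and is one of several genes in the B3gat3 window with a peak at the start, among them Ubxn1, Ganab, Mta2 and Uqcc3.

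The chain-starting enzymes differed in layout. Csgalnact1 (gene 234356, chromosome 8, 68356781 to 68735621, 379 kb) was the member with most accessible regions inside its own body, 11 of 14, 7 of them in all 4 libraries. Its strongest region lay in its own body and away from the start, which holds for no other member: 68625675 to 68626453, 109 kb from the nearer end. That region had a fold enrichment of 18.5 and 20.1 with siControl and 16.4 and 19.7 with siChst7, values that overlapped. The others in the body called in all 4 libraries outside the start were weaker, with single values between 6.51 and 14.1. Summits over its start fell at more than 1 position, at −502 and −507 bp from the end of the gene in siControl replicate 1 and siChst7 replicate 2 and at −30 bp in the other libraries, where negative values lie inside the gene. Fold enrichment over that start (68734586 to 68735873) was 9.57 and 9.99 with siControl and 9.05 and 11.6 with siChst7 (10.1 ± 1.10, SD, n = 4). The reference gave no strand for Csgalnact1, so the higher-coordinate end is called its start because the peak lay there.

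Csgalnact2 (gene 78752, chromosome 6, 118107452 to 118139140) had 4 of 12 regions in its body. Over its start (118138582 to 118139648) the fold enrichment was 14.1 and 15.7 with siControl and 16.3 and 13.3 with siChst7 (14.8 ± 1.39, SD, n = 4). The siChst7 libraries were the highest and the lowest, so the groups overlapped. In the body, regions at 118122664 and 118127949, 15.6 and 10.1 kb from the start, were called in all 4 libraries. The strongest region of the window, 118179361 to 118180178, lay inside the receptor tyrosine kinase gene Ret, 40.2 kb away, with a mean of 16.5.

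The polymerase genes differed in their number of regions. Chsy1 (gene 269941, chromosome 7, 66109492 to 66173798) had 16 regions, the most of any member, with 11 in all 4 libraries. Its start region (66108900 to 66109560) measured 10.8 and 10.1 with siControl and 9.91 and 8.83 with siChst7 (9.91 ± 0.815, SD, n = 4). Both siControl values were above both siChst7 values on this raw scale, but the percentile ranks among regions called in all 4 libraries overlapped. Regions inside Chsy1 at 66117930 and 66128186 were called in all 4 libraries, and so were 4 regions beyond its far end. The strongest region of its window was at the start of Snrpa1, 48.6 kb away (66060119 to 66060910, mean 16.8).

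Chsy3 (gene 78923, chromosome 18, 59175340 to 59411336, 236 kb) had 1 region in its body and flanks, over the lower-coordinate end. Of 777 genes with body and flanks at least as long, 102 (13.1%) had at most 1. Its fold enrichment was 8.23 and 8.52 with siControl and 7.93 and 5.24 with siChst7 (7.48 ± 1.51, SD, n = 4). The last value stood apart from the other 3 libraries. Reads at the summit, solved from the authors' fold enrichment and p, were 23 in each of those 3 and 12 in siChst7 replicate 2. Exact Poisson 95% intervals, which cover counting error only, were 14.6 to 34.5 for 23 reads and 6.20 to 21.0 for 12, and they overlapped. siChst7 replicate 2 also had the lowest genome background of the 4 libraries, 0.771 relative to siControl replicate 1.

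Chpf (gene 74241, chromosome 1, 75474569 to 75479471) shares its start region with Tmem198. The reads at that summit (75478635 to 75479823) numbered 290 and 293 with siControl and 270 and 238 with siChst7, the most of any member start. The fold enrichment, 11.4 and 11.2 against 10.2 and 11.6 (mean of all 11.1 ± 0.622, SD, n = 4), was not the highest. The local background there was 24.6 and 25.2 reads with siControl and 25.7 and 19.5 with siChst7. Chpf had 13 regions, 10 in all 4 libraries, the strongest at the start of Stk11ip (75521108 to 75522173, mean 17.1). A shared region cannot be assigned to one gene of the pair.

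Chpf2 (gene 100910, chromosome 5, 24586744 to 24594398) had 11 regions but only 5 in all 4 libraries, and 4 were missing in exactly 1 library. Over its start (24586285 to 24588040) the fold enrichment was 8.39 and 7.05 with siControl and 7.76 and 7.64 with siChst7 (7.71 ± 0.549, SD, n = 4). The siChst7 values lay between the siControl values. The neighbouring gene Smarcd3, which encodes a subunit of the BAF chromatin remodelling complex of heart muscle, held 6 of the 11 regions, 3 of them in all 4 libraries. The strongest region was at the start of Abcf2, 8.65 kb away (24576957 to 24578097, mean 18.4).

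**Figure D2:**
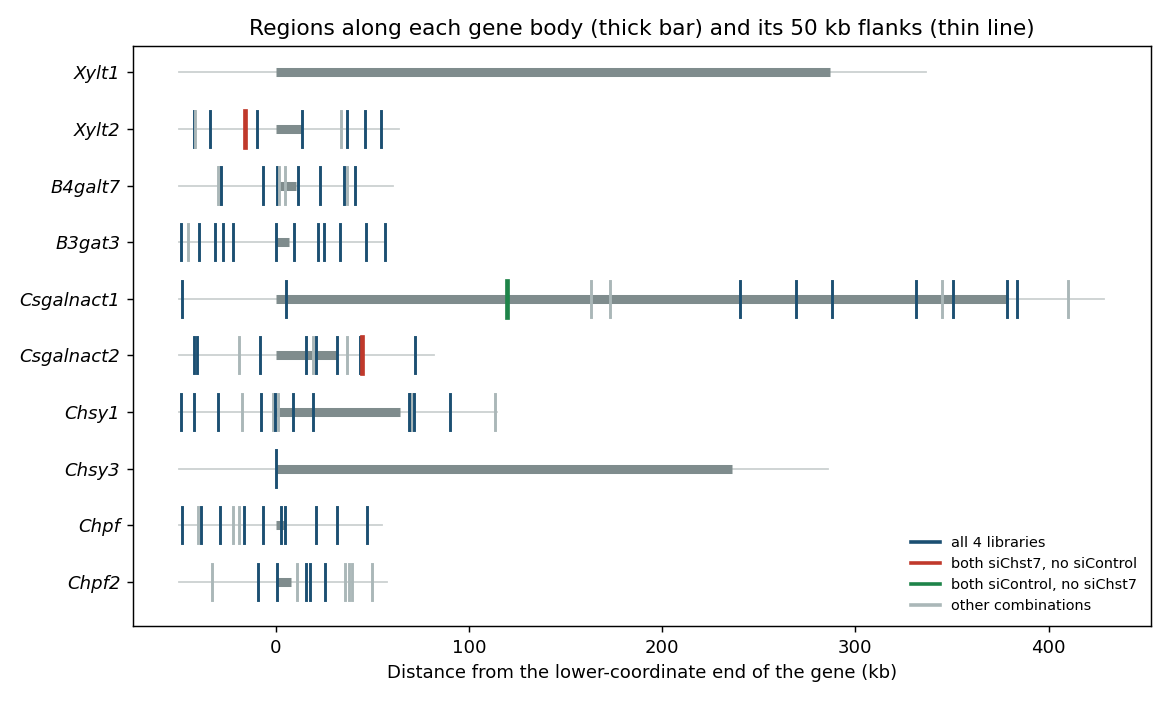
Position of each merged region (vertical tick) relative to the lower-coordinate end of the gene (horizontal axis, kb), with the gene body as a thick bar and its 50 kb flanks as a thin line. Ticks are coloured by the libraries that called the region; Csgalnact1 has 11 regions in its 379 kb body, and Xylt1, with a body of 287 kb, has 0.

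Ordered by mean fold enrichment, the start regions ran B3gat3, Csgalnact2, Xylt2, Chpf, Csgalnact1, Chsy1, Chpf2, B4galt7 and Chsy3. Neighbours in that order overlapped in their 4 library values, except that Csgalnact2 (lowest 13.3) lay above Xylt2 (highest 12.0) and Chsy1 (lowest 8.83) above Chpf2 (highest 8.39). By reads at the summit the order changed: Chpf came first with a mean of 273, then B3gat3 with 169 and Csgalnact2 with 135. Chsy3 was last on both scales, with a mean of 20.2 reads, against 80.2 for B4galt7, the next lowest. Among the 55924 regions called in all 4 libraries, the B3gat3 start stood at a mean percentile of 89.7 by fold enrichment, the Csgalnact1 start at 56.1 and the Chsy3 start at 33.1. The linker and chain genes thus ranged from the upper to the lower part of the list, and the median of all 70 member regions was the 57.1 and 57.8th percentile with siControl and the 55.3 and 55.0th with siChst7.

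**Figure D3:**
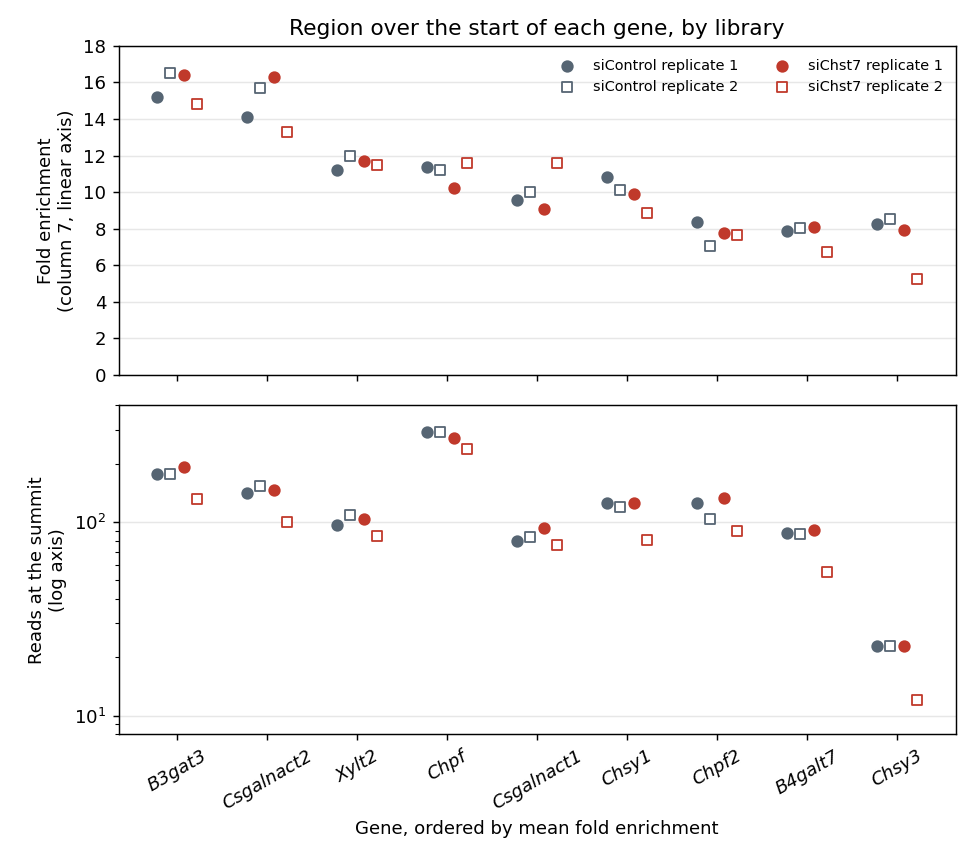
Fold enrichment (upper panel, linear axis) and reads at the summit (lower panel, log axis) of the region over each gene start, 1 point per library, for the 9 genes with a start peak. B3gat3 and Csgalnact2 lie highest by fold enrichment, Chpf highest by reads, and the siChst7 replicate 2 point of Chsy3 (12 reads) lies below the other 3 (23 reads each).

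Between the siRNAs, few member regions were called in 1 group only. Regions with a peak in each siChst7 library and in no siControl library (siChst7-specific) numbered 2 of 102 (1.96%, against 1.24% of all regions). The siControl-specific ones numbered 1 (0.980%, against 2.84% of all regions). At the level of genes, 8.53% of all protein-coding genes had at least 1 siChst7-specific region in body and flanks and 20.3% had at least 1 siControl-specific region. Both shares of regions rest on so few that a single region moves them, and no start region was among them.

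The first siChst7-specific region lay in the flank of Xylt2, inside the DNA repair gene Eme1 (chromosome 11, 94647356 to 94648054), 29.4 kb from the Xylt2 start. Its fold enrichment was 2.84 and 3.47, its −log10 q 3.69 and 4.53, and its summits had 21 and 18 reads. The second lay in the flank of Csgalnact2, inside Ret (chromosome 6, 118152034 to 118152508), 12.9 kb from the start. It measured 2.52 and 3.71, with −log10 q of 2.55 and 6.26 and 19 and 23 reads. Both lost the call when each library kept only its strongest peaks down to the length of the shortest list. The siControl-specific region lay deep in the body of Csgalnact1 (chromosome 8, 68476382 to 68476830), 120 kb from the nearer end. Its fold enrichment was 4.80 and 7.81, its −log10 q 5.75 and 13.9, and its reads 13 and 21. It kept the call at a −log10 q of at least 5 and lost it at 10, with lists of equal length and with 200 bp windows around summits. None of these 3 calls held under every filter. The median −log10 q was 51.1 for member regions in all 4 libraries, 4.11 for the siChst7-specific and 9.82 for the siControl-specific.

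Calls also varied within a group. Regions found in a single library numbered 1 and 9 in siControl replicates 1 and 2 and 5 and 3 in siChst7 replicates 1 and 2. Of the 7 regions called in exactly 2 libraries, 3 joined a pair from the same siRNA and 4 a library of each siRNA. Without siControl replicate 1, the siControl-specific count went from 1 to 10 of 103 regions, and the share over all regions went to 9.03%. Without siChst7 replicate 2 the siChst7-specific count went from 2 to 7 of 99, and the share over all regions to 6.53%. Leaving out a library loosens the definition, since a single library of that siRNA then carries the call. These counts therefore include regions found in a single library. Member peaks numbered 82 and 89 with siControl and 90 and 85 with siChst7, or 85.50 ± 4.95 and 87.50 ± 3.54 (SD, n = 2 each). The difference of 2.00 peaks had an exact two-sided permutation p of 0.67, and with 6 assignments of the libraries the smallest p the design allows is 0.33. As a share of all peaks in a library the member peaks made up 0.111% and 0.118% with siControl and 0.121% and 0.129% with siChst7 (exact two-sided permutation p = 0.33). The counts overlapped between the groups and the shares did not, while the shortest list, that of siChst7 replicate 2, had the highest share. The difference in counts changed sign under several settings: it was −2.00 with peaks of −log10 q of at least 5 and −1.5 without siControl replicate 1.

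For regions called in all 4 libraries, each library ranked the same 55924 regions by fold enrichment, and the percentiles were compared. Both siChst7 libraries ranked above both siControl libraries in 12 of 70 member regions (17.1%, against 19.5% of all such regions) and below them in 12 (17.1%, against 18.4%). In the remaining 46 the groups overlapped. Both shares were close to those of all regions. By gene, Csgalnact2 had no region outside overlap among its 8. B3gat3 had 3 higher and 1 lower of 12, Chsy1 3 and 2 of 11, Chpf 2 and 3 of 10, Xylt2 2 and 1 of 7, Csgalnact1 1 and 1 of 9, and Chpf2 1 and 0 of 5. B4galt7 had 0 higher and 3 lower of 7. At the starts, Xylt2 ranked higher with siChst7 (63.7 and 68.4 with siControl, 70.0 and 70.1 with siChst7) and Chsy3 lower (39.4 and 41.2, against 38.3 and 13.7). In both the nearest libraries of the 2 groups were less than 2 points apart (1.6 for Xylt2 and 1.1 for Chsy3), and the Xylt2 start overlapped when ranked by −log10 q.

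**Figure D4:**
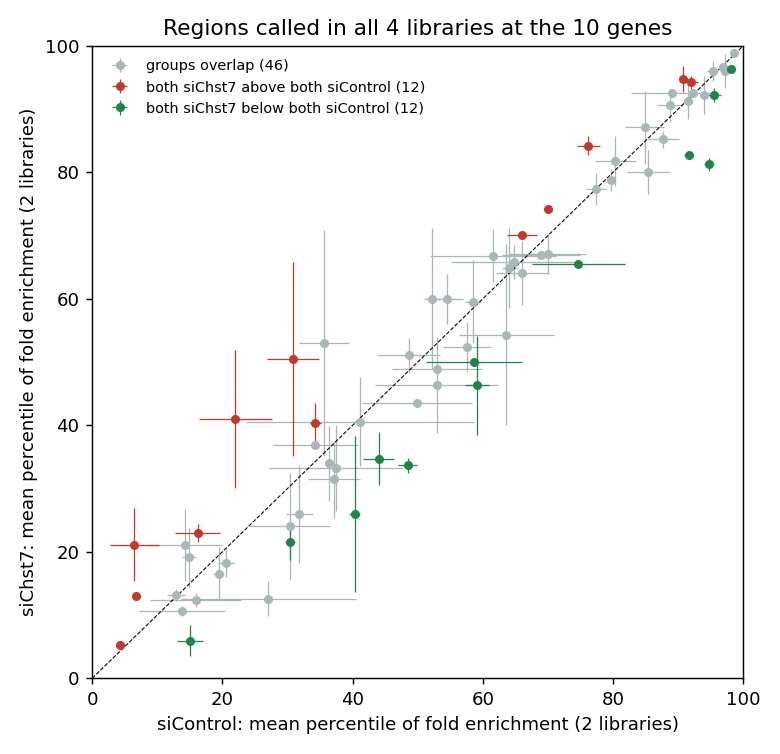
Mean percentile of fold enrichment of the 70 member regions called in all 4 libraries, siControl on the horizontal and siChst7 on the vertical axis; bars span the 2 libraries of each group and the dashed line marks equality. In 12 regions both siChst7 libraries lie above both siControl libraries, in 12 below, and in 46 the groups overlap.

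The 3 lower regions at B4galt7 had the widest separation of all; they and the regions named in the rest of this paragraph were chosen after their values were seen. At 55611113 to 55611820, just beyond the far end of B4galt7 and 11.2 kb from its start, the fold enrichment was 9.10 and 9.58 with siControl and 7.59 and 7.15 with siChst7. Percentiles were 47.0 and 49.9 against 34.8 and 32.5, a gap of 12.2 points between the nearest libraries. At 55640490 to 55640989, inside the RNA helicase gene Ddx46 and 40.6 kb from the B4galt7 start, percentiles were 94.0 and 95.5 against 82.3 and 80.2, a gap of 11.7. At 55622374 to 55623561, which overlaps the neighbouring gene Caml, they were 90.9 and 92.3 against 82.6 and 82.8, a gap of 8.10. In each of the 3, replicates of the same siRNA differed by less than 3 points, and the groups did not overlap by −log10 q or by reads at the summit either. These measures describe the same peaks in the same lists, and the reads are solved from fold enrichment and p. Their agreement, here and in the counts below, is therefore not a separate check. The start of B4galt7 itself and the regions at the starts of Tmed9, Fam193b and Ddx46 overlapped between the siRNAs. Only listed starts were told apart, so whether the region overlapping Caml lies at the start of that gene was not determined. A gap of at least 5 points in the lower direction was seen in 4 of the 70 member regions and in 6.47% of all regions. In the higher direction it was seen in 2 of 70 and in 6.41%. The fourth lower one was a flank region of Chsy1 at 66178139, with percentiles of 31.1 and 29.6 against 24.4 and 18.7. Its neighbour at 66178920 moved the opposite way, with 12.7 and 19.7 against 21.5 and 24.4. The 2 higher ones were inside Chpf at 75477258 (6.64 and 6.96 against 13.2 and 12.9) and in the flank of Xylt2 at 94709701 (2.70 and 10.2 against 15.3 and 27.0). By mean percentile the largest rises, in the body of Csgalnact1 at 68596930 (30.9 to 50.5) and of Chsy1 at 66117930 (22 to 41), rested on siChst7 replicate 2, since the nearest libraries of the groups were only 0.2 and 2.5 points apart. On the same side by fold enrichment, −log10 q and summit reads were 4 of the 70 member regions in the higher direction (5.71%, against 13.5% of all shared regions) and 9 in the lower direction (12.9%, against 13.7%). Of the 12 regions ranked higher by fold enrichment, 8 therefore did not hold on all 3 measures.

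Another 29 genes of the pathway, which supply precursors, add the other linker sugars, sulfate the chain or start heparan sulfate on the same linker, had a start peak in all 4 libraries in 27 cases. The exceptions were the sulfotransferase genes Chst13, with none, and Chst15, with a start peak in 1 library. All 9 linker and precursor genes, 14 of 16 sulfation and epimerization genes and 4 of 4 heparan sulfate chain genes had one. Their 380 regions included 244 in all 4 libraries (64.2%), 9 siChst7-specific (2.37%, against 1.24% of all regions) and 8 siControl-specific (2.11%, against 2.84%). Some siChst7-specific ones lay in gene bodies, at Ugdh, which makes UDP-glucuronic acid, and at the heparan sulfate polymerase gene Ext1 (2 regions). The others lay in 50 kb flanks, at Uxs1, which converts UDP-glucuronic acid to UDP-xylose, at Slc35b1 (2), Slc35a2 and Chst12 (2). The siControl-specific ones lay in the bodies of Chst11, Dse, Papss1, Slc35b3 and Ext2 and in the flanks of Slc35d1, Slc35a2 and Chst11. Calls at these 29 genes were not checked under the filters used for the members. Of the shared regions 39 (16%, against 19.5% of all) ranked higher and 56 (23%, against 18.4%) lower with siChst7. Among the 27 start regions 3 ranked higher, 9 lower and 15 overlapped, while over the start regions of all protein-coding genes 19.3% ranked higher and 16.0% lower. The higher ones were those of Chst3, with a fold enrichment of 5.92 and 6.97 with siControl and 8.11 and 7.54 with siChst7, of Slc35a2 (14.3 and 13.4 against 15.5 and 14.2) and of Slc35b2 (11.3 and 11.7 against 11.3 and 11.1). The last 2 did not separate on the raw scale and did so only by percentile. The lower ones included those of B3galt6, Fam20b, Slc35d1, Chst7, Ust, Papss1, Slc26a2 and Ext1. B3galt6, which adds the second linker galactose, and Fam20b, the kinase that phosphorylates the linker xylose, act on the same linker as the xylosyltransferases. The B3galt6 start had a fold enrichment of 14.1 and 14.6 with siControl and 12.3 and 11.7 with siChst7. At the Fam20b start it was 14.4 and 14.3 against 12.5 and 10.0. The start of Chst7, the target of the siRNA, stood at 15 and 13.1 against 12 and 12.

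The fibroblast label was set beside marker genes: 12 of 15 fibroblast and 4 of 5 smooth muscle markers had a start peak in all 4 libraries. For cardiomyocyte markers it was 2 of 10, for immune and epithelial markers 1 of 5 each, and for endothelial and neural markers 0 of 5 each. Of all protein-coding genes 53.8% had one. The fibroblast exceptions were Col3a1 and Lum, with a start peak in 0 libraries, and Dcn, with one in 2. These counts do not separate fibroblasts from smooth muscle. The deposited lists held 66165 to 75696 peaks. The genome background in reads was 1.92 and 1.82 with siControl and 2.03 and 1.48 with siChst7. siChst7 replicate 2, the library with the fewest peaks, also had the lowest background, and its part in the differences between siRNAs was not tested.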

How the data were processed

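ATAC-seq peak lists of 4 libraries were used, 1 list per library. The submitters' processing notes name mm10 as the build and MACS3, Bowtie, SAMtools, HOMER and bedtools as tools, with neither versions nor roles. Read totals, duplicate removal and any shift of Tn5 cut sites are not given there. The peak names in each deposited list carry a single alignment, so libraries were called separately. The deposited score is 10 times the −log10 q. The authors' fold enrichment is a ratio of the summit pileup to the local background of that library, and the authors' −log10 p and −log10 q are those of the summit, listed from a q-value of 0.01. These values only described and ranked peaks within a list.

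Peaks on chromosomes 1 to 19, X and Y that shared at least 1 bp were merged with Python 3.11.15, pandas 2.3.3 and numpy 2.4.6 (scipy 1.17.1 for tests, matplotlib 3.10.9 for figures); a region took the value of its strongest peak in each library. Reads and local background at a summit were solved from fold enrichment and Poisson p. The match was within 0.01 for 99.1% to 99.8% of 3000 sampled peaks per library. Another solver, used for ranking by summit reads, was run on data simulated with the same formula. That simulation cannot show whether the formula holds for the deposited values. Gene positions, starts and promoter windows came from RefSeq tables of GRCm38.p6. Xylt1, Csgalnact1 and Chsy3 had no listed start, so either end counted; exons and introns are not told apart. With 2 libraries per siRNA no region was tested. Named are each gene's start region, its strongest region and its group-specific regions; other regions were chosen after their values were seen. The genes and lists were chosen with earlier results of these data known.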

Additional observations from a re-analysis of the deposited data

How the results depend on the processing

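Of 90 alternatives over 7 results, 47 were labelled the same, 37 moved the value and 6 turned its sign. For counts, the same meant within a fixed ratio of the main value. For the difference in member peaks it meant only the same sign, so that 5.50 without siControl replicate 2 was labelled the same as 2.00. The count of genes with a start peak in all 4 libraries was 9 throughout, except 8 at −log10 q of at least 10, where Chsy3 was lost. Regions in all 4 libraries numbered 63 to 74 under filters and without single libraries, and 20, 34 and 114 with the gene body only, 10 kb flanks and 100 kb flanks. With the same 3 windows, regions ranked higher with siChst7 numbered 4, 6 and 20, those ranked lower 2, 4 and 23, and siChst7-specific ones 0, 0 and 4; the larger or smaller window itself sets how many regions are counted. siControl-specific regions numbered 2 with 100 kb flanks.

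The group-specific counts moved with the filters, and they do not say which regions they hold. siChst7-specific regions numbered 0 at −log10 q of at least 5, 0 at 10, 1 with peaks at least 200 bp wide, 1 with lists of equal length, 5 with summit windows, and 3 to 7 without each library in turn (3.05% to 6.53% of all regions). siControl-specific regions numbered 2 at −log10 q of at least 5, 0 at 10, 2 with summit windows, and 2 to 10 without each library in turn (4.56% to 9.03% of all regions). Without each library in turn, 21 to 24 regions ranked higher and 20 to 30 lower, of 71 to 74 shared; over all regions the shares were 34% to 37.5% and 33.2% to 34.9%, since fewer libraries have to be on one side. The difference in member peaks was −2.00 at −log10 q of at least 5, −1.00 at 10, −1.00 with the gene body only, −1.5 with 10 kb flanks, and −1.5 to 5.50 without each library in turn (−0.5 without siChst7 replicate 1); the cause was not tested.

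The labels do not say that replicate numbers pair the libraries. With the replicate number as a block, that is the same direction within each number, 15 of 70 regions ranked higher and 19 lower, against 27.5% and 26.6% of all regions. Ranking by −log10 q gave 9 and 13 of 70 (20.2% of all regions in each direction), and ranking by summit reads, chosen after seeing the data, gave 8 and 13 of 69 (21.1% and 21.7% of all regions). Peak lists give no read counts at regions without a call, so a missing call is not evidence of closed chromatin, and weak regions are limited by depth.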
